A study of Mus musculus with 22 samples.

Results

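A set of 7 genes of inhibitory transmission were followed across genotype and hemisphere: Gad1, Gad2, Slc32a1, Slc6a11, Abat, Nlgn2 and Gphn. Their features were found by gene symbol, and the deposited count table holds 86 features (regions of RNA 5′ ends) for these 7 genes, out of 112460 features and 15297 genes with a single symbol. Each gene's features were summed to one read count, and were also examined by class (5′ UTR, coding sequence, 3′ UTR, intron).

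GABA, the main inhibitory transmitter of the cortex, is made from glutamate by 2 glutamic acid decarboxylases, GAD67 from Gad1 and GAD65 from Gad2. The vesicular transporter encoded by Slc32a1 loads it into synaptic vesicles, the plasma membrane transporter GAT3, encoded by Slc6a11 and found mainly on astrocytes, takes it up again, and the mitochondrial transaminase encoded by Abat degrades it. On the receiving side of inhibitory synapses, neuroligin 2 (Nlgn2) is an adhesion molecule that binds neurexins, and gephyrin (Gphn) forms the lattice that anchors glycine receptors and many GABA type A receptors. Gephyrin is also an enzyme of molybdenum cofactor synthesis, and is therefore made outside neurons too.

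The tissue was M1, the primary motor cortex, of C57BL/6 males of 16 to 20 weeks that were either wild type (WT, 6 mice) or BERKO (5 mice), mice without estrogen receptor beta, the product of Esr2. A further BERKO sample had been removed by the submitters as an outlier. Each mouse gave a right and a left biopsy by needle puncture, 22 in all, and 10 ng of RNA from each was sequenced by STRT, which tags the 5′ end of an RNA during reverse transcription. A biopsy holds all cell types of the punctured tissue, so fewer cells of a type and less RNA per cell cannot be told apart. The labels name no treatment; mice were anesthetized with pentobarbital, and those used for RNA were killed by cervical dislocation.

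Reads per biopsy ranged from 249751 to 2018833, and reads in genes per mouse from 1353208 to 2722667 in WT and from 968219 to 1626675 in BERKO. Esr2 itself had 13 reads, in 3 biopsies, 3 of them WT reads and 10 BERKO reads, which is too few to check the genotype labels. The right and left biopsies of WT replicate 1 and the left biopsy of WT replicate 2 stood apart on the first principal component (-48.9 to -40.4, against -9.78 to 18.4 in the other 19 libraries). In these 3 libraries the summed level of a list of hypothalamic and basal forebrain markers was 2572 to 3332 CPM (read counts scaled to a common library size), against 639 to 1262 in the others, although 7 markers of that list (Ghrh, Avp, Agrp, Nkx2-1, Fezf1, Lhx8 and Slc5a7) were at 0 in every biopsy. Between genotypes, all 6 markers of this list that could be tested were lower in BERKO, with a median log2 difference of -0.90 and 0 called, which became -0.17 with the 3 libraries left out. The medians of other marker lists, also with 0 called, moved with these libraries too. With all libraries and then without the 3, they were 0.19 and 0.11 for neurons in general, -0.39 and 0.15 for striatal projection neurons, 0.30 and -0.04 for oligodendrocytes, 0.34 and 0.20 for microglia, 0.46 and 0.31 for endothelium, and 0.63 and 0.50 for meninges. The cortical marker Slc17a7, which loads glutamate into vesicles of excitatory neurons, was present in every biopsy, at 71.3 to 263 CPM. The code in the column names that was read as the plate well differs with genotype and side, so plate position and genotype cannot be told apart.

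The RefSeq promoters of 6 of the 7 genes were searched for the binding motif of estrogen receptors and for 3 common promoter motifs. Each window spans the 250 bases before the annotated start on build GRCm38.p6. The sequences of the 2 synthesis genes, of Nlgn2 and of Slc6a11 are shown because the genotype values described afterwards turn on the first 3, while Slc6a11 and Gad2 are the genes with letters of the estrogen receptor motif. Capitals mark every motif match on either strand.
Gad1, chr2:70561879-70562128, plus strand: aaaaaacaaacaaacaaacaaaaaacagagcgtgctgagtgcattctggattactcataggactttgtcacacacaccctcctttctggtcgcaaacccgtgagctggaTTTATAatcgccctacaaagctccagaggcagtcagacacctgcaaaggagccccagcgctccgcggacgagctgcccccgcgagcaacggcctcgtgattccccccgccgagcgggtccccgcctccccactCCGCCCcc
Gad2, chr2:22622077-22622326, plus strand: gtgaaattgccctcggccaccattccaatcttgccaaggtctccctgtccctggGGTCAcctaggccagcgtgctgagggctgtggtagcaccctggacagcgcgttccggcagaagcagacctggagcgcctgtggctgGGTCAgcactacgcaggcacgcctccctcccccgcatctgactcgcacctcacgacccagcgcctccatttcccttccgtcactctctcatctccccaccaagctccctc
Nlgn2, chr11:69837785-69838034, minus strand: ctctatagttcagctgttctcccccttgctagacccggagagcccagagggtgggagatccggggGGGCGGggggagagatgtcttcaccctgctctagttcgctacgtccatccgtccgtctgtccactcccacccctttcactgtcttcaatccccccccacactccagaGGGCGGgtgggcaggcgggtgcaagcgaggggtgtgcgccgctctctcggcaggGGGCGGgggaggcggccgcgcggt
Slc6a11, chr6:114130991-114131240, plus strand: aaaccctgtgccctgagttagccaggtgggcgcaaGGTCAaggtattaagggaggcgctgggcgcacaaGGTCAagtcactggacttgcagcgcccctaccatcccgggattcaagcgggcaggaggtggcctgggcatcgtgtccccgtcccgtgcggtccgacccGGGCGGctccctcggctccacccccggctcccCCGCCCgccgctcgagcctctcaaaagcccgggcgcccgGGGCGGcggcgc

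None of the 6 windows held a full estrogen response element, here the arms GGTCA and TGACC with 3 bases between them, which 0.0639% of all 32851 promoters of this length hold. The single arm GGTCA occurred 2 times in Gad2, at 196 and 110 bases before the start, and 2 times in Slc6a11, at 215 and 181 bases, where 35.2% of all promoters hold at least 1. Gad1 had 1 TATAAA match, on the minus strand 141 bases before its start (12.4% of all promoters), and 1 GGGCGG match 8 bases before it. The Nlgn2 window held GGGCGG at 185, 78 and 24 bases before the start, the Slc6a11 window at 83, 51 and 12 bases, and the Gphn window at 90 bases, a motif that 32.7% of all promoters hold. No window held TGANTCA, the motif of AP-1 factors (6.75% of all promoters), and the Slc32a1 window held none of the motifs. These matches are a description of the letters in the windows.

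The members differed in where along the gene their reads lay, which sets what each count measures. For 4 genes most reads lay in a 5′ UTR feature, the place where an intact RNA begins: 76.5% of 2938 reads for Gad1, 72.9% of 2414 for Gad2, 83.3% of 3863 for Abat and 64.5% of 743 for Gphn. Nlgn2 had no 5′ UTR feature, and 88.6% of its 1321 reads lay in the 3′ UTR and 11.4% in coding sequence. Slc6a11 was alike, with 0% of 975 reads in its 5′ UTR feature, 80.9% in the 3′ UTR and 18.4% in coding sequence. The counts of Nlgn2 and Slc6a11 are therefore counts of RNA ends inside the transcript and say nothing of the use of the promoters shown above.

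**Figure D1:**
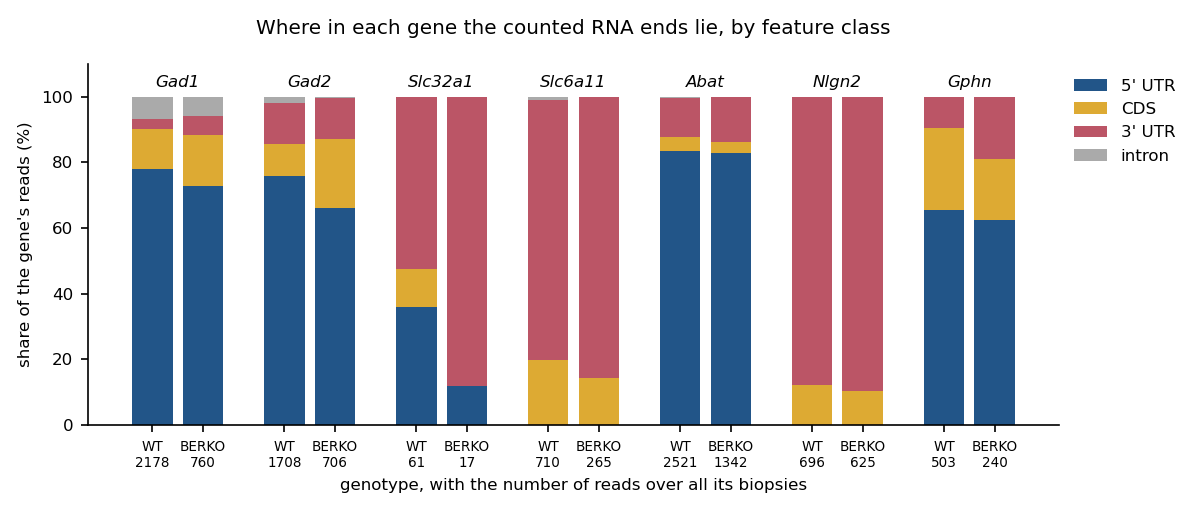
Share of the reads of each gene (%, stacked bars) in 5′ UTR, coding (CDS), 3′ UTR and intron features, for all WT and all BERKO biopsies, with the number of reads under each bar. Gad1, Gad2, Abat and Gphn are mostly read at the 5′ UTR, whereas Nlgn2 and Slc6a11 are read almost wholly in the 3′ UTR and coding sequence.

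Over all genes, reads outside 5′ UTR and upstream features made up 17.0% ± 1.85 (SD, n = 6) of gene reads in WT mice, from 13.8% to 19.6%, and 20.4% ± 1.35 (SD, n = 5) in BERKO mice, from 18.8% to 22.0%. Among the members, the share of Gad1 reads in its 5′ UTR was 78.0% ± 1.75 (SD, n = 6) in WT and 72.6% ± 5.21 (SD, n = 5) in BERKO. For Gad2 the share was 76.8% ± 6.40 (SD, n = 6) and 66.2% ± 2.79 (SD, n = 5). This difference in read position moves with the genotype, and its part in the gene values below was not tested except by the separate counts of promoter and other features.

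The main question was how the genes differed between BERKO and WT mice, with the 2 biopsies of a mouse summed. In edgeR's quasi-likelihood test with Benjamini-Hochberg adjustment over 9025 genes, 6 of the 7 members could be tested and 0 passed an adjusted p of 0.05. The background was equally small, with 7 genes or 0.0776% called. At an unadjusted p under 0.05, 2 members passed, Gad1 and Nlgn2, against 9.92% of all genes tested, and 1 member, Gad1, had genotypes that did not overlap, against 1.33%. By DESeq2, 34 genes and 0 members were called. In simulated data made for this comparison the test recovered 25.5% of genes changed by 1 on the log2 scale and 95.6% of those changed by 2. Smaller changes, such as those of the members, were not simulated. The simulation also gave every gene the same spread between mice, so it does not tell how detectable the members' differences are.

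**Figure D2:**
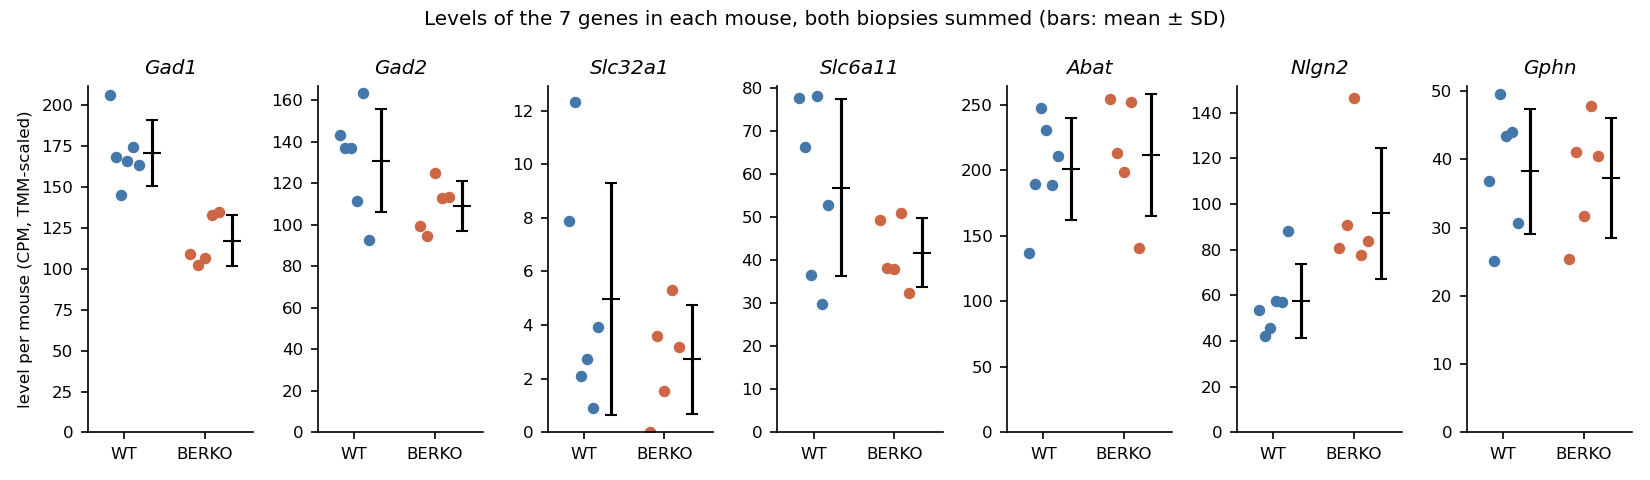
Level of each gene in each mouse (CPM after TMM scaling, linear axes from 0), WT in blue and BERKO in orange, with the mean ± SD as a black bar. All 5 BERKO mice lie below all 6 WT mice for Gad1, and 1 WT mouse lies among the BERKO mice for Nlgn2; the other genes overlap broadly.

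Gad1, the gene of the decarboxylase that makes most cortical GABA, was measured at 146 CPM in the lowest WT mouse, 167 at the median and 207 in the highest. The BERKO mice had 109, 102, 107, 133 and 135 CPM in replicates 2 to 6. Every BERKO mouse was thus under every WT mouse. The means were 171 ± 20.1 (SD, n = 6) in WT and 117 ± 15.4 (SD, n = 5) in BERKO, a log2 difference of -0.54 ± 0.16 (SE). It did not pass the test after adjustment (adjusted p = 0.228 by edgeR, rank 76 of 9025 genes by p).

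Gad2, the gene of the decarboxylase enriched at nerve endings, ranged from 92.8 to 163 CPM in WT mice with a median of 137. The BERKO mice had 99.3, 94.5, 125, 113 and 113 CPM. All BERKO values lay inside the WT range. The means were 131 ± 24.9 (SD, n = 6) and 109 ± 12.1 (SD, n = 5), with a log2 difference of -0.27 ± 0.17 (SE) and an edgeR adjusted p of 0.611. When the 3 WT libraries apart from the rest were dropped, in which Gad2 was 141 to 247 CPM against 83.6 to 172 in the other 9 WT libraries, the difference was -0.14 ± 0.19 for Gad2, while that of Gad1 was -0.50 ± 0.17.

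The 5′ UTR features of both synthesis genes were tested on their own among 13128 features, of which 15 or 0.114% were called and 1.83% did not overlap between genotypes. Of 11 member features tested, 0 were called, 1 did not overlap, and 3 had an unadjusted p under 0.05 (11.6% of all features). The Gad1 5′ UTR feature at position 70400232 of chromosome 2 (mm9, plus strand) had 124 to 173 CPM in WT mice with a median of 134, and 79.4, 78.1, 68.8, 99.9 and 102.5 CPM in the BERKO mice. The genotypes did not overlap at this feature, and the log2 difference was -0.70 ± 0.18 (SE, adjusted p = 0.137 by edgeR). The Gad2 5′ UTR feature at position 22478074 of chromosome 2 had 79.0 to 121 CPM in WT, with 65.4, 60.0, 82.1, 78.9 and 76.2 CPM in BERKO. Here 1 BERKO mouse lay inside the WT range, and the log2 difference was -0.53 ± 0.19 (SE, adjusted p = 0.287 by edgeR). The other Gad1 feature with enough reads, in an intron at 70401440, differed by -0.89 ± 0.62.

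The gene fit was repeated on counts of promoter features alone, with libraries scaled on those counts. For both genes these are the same reads as in the 5′ UTR features above, fitted with another scaling and another set of genes. The gene values were -0.55 ± 0.17 for Gad1 and -0.38 ± 0.19 for Gad2. On the other features alone they were -0.56 ± 0.28 and -0.07 ± 0.30. The Gad1 values were of like size in both read classes. The Gad2 values differed by less than the sum of their errors, and the difference between the classes was not tested.

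The ratio of Gad1 to Gad2 reads within a mouse needs no scaling between libraries. As log2 values with 0.5 added to each count, it was 0.40 ± 0.29 (SD, n = 6) in WT mice, from 0.089 to 0.82, and 0.10 ± 0.19 (SD, n = 5) in BERKO, from -0.22 to 0.25. BERKO replicate 4 was the 1 mouse with fewer Gad1 than Gad2 reads. The difference of -0.30 had a two-sided exact permutation p of 0.0887, where the smallest p that the splits of 11 mice allow is 0.00216. The ratio was chosen when Gad1 was already known to be lower in BERKO, so its p is not that of an independent test. On promoter reads alone the difference was -0.19 with an exact permutation p of 0.312. Of 14 alternatives, 1 had a p under 0.05: without WT replicate 3 the difference was -0.36 with an exact permutation p of 0.0476. Transcripts of both genes share stretches with those of other genes. Gad1 shares 127 bases at 96.1% identity with the pseudogene Gad1-ps. Gad2 shares stretches with 31 other genes, the longest of 151 bases at 96.0% identity. Whether these stretches lie in the counted features was not tested. The handling of such reads by the aligner is not known from the labels, so both counts carry that uncertainty.

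Markers of cortical interneurons, the cells that make GABA, were split in direction. Of 22 tested, 10 were higher and 12 lower in BERKO, 0 were called, and the median log2 difference was -0.09 against -0.01 for all genes. Their summed level was 2190 to 3686 CPM in WT mice and 3242 to 4122 in BERKO, and the lowest BERKO sum lay above the WT mean of 2974 CPM. The sum weighs abundant genes of the list most and is not a count of interneurons. Which genes carried its difference was not tested. In the 3 WT libraries that stood apart the sum was 1812 to 2254 CPM, against 2591 to 4248 in the other 19; without them 16 markers could be tested, 10 higher and 6 lower, with a median of 0.13. Parvalbumin (Pvalb), which marks fast-spiking interneurons, was at a mean of 271 CPM in WT and 257 in BERKO. Somatostatin (Sst), of dendrite-targeting interneurons, was at 400 and 335, and Vip, of interneurons that mostly inhibit other interneurons, at 79.3 and 135. These WT means rest in part on the 3 libraries that stood apart, which had at most 65.4 CPM of Pvalb and 559 to 721 of Sst, against medians of 273 and 286 in the other 19. With all libraries and then without the 3, the log2 difference was -0.08 and -0.42 for Pvalb, -0.26 and 0.03 for Sst, and 0.77 and 0.53 for Vip. In the same mice 9 of 10 excitatory neuron markers tested were higher in BERKO, 0 of them called, with a median of 0.49, and without the 3 libraries, in which their sum was 2053 to 3021 CPM against 2403 to 6068 in the others, 6 of 9 were higher with a median of 0.36. The part of cell composition in the Gad1 value was not tested.

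The genotype comparison was also made for each hemisphere. On the right side, with 7696 genes tested and 0.065% called, 0 members were called, and 2 of the 6 tested did not overlap between genotypes (1.03% of genes). Gad1 on the right was 156 to 225 CPM in WT with a median of 186, and 95.3, 139, 138, 111 and 135 CPM in BERKO, a log2 difference of -0.59 ± 0.20 (SE, adjusted p = 0.445 by edgeR). Nlgn2 on the right was 36.9 to 58.3 CPM in WT and 87.1, 87.4, 78.1, 83.0 and 107 CPM in BERKO, a difference of 0.89 ± 0.25 (SE, adjusted p = 0.282 by edgeR). Both genes separated the genotypes fully on this side, in opposite directions. The share of gene reads outside 5′ UTR and upstream features, the class that holds all Nlgn2 reads, also separated them there. The highest WT share was 18.7%, in replicate 2, and the lowest BERKO share 18.9%, in replicate 6. On the left these shares overlapped, with 21.4% for WT replicate 4 and 16.7% for BERKO replicate 5. The part of read position in the right side Nlgn2 value was not tested. Gad2 on the right was level, at 125 ± 33.6 CPM (SD, n = 6) in WT and 124 ± 16.6 (SD, n = 5) in BERKO.

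On the left side 0% of 6616 genes were called, and 0 members against 1.04% of genes did not overlap. Gad2 was the member with the smallest p there: WT biopsies had 88.2 to 247 CPM with a median of 147, and BERKO biopsies 76.6, 74.2, 85.4, 45.5 and 124 CPM. Of the BERKO left biopsies, 4 of 5 lay under every WT left biopsy, and the log2 difference was -0.85 ± 0.29 (SE, adjusted p = 0.618 by edgeR). The value of 45.5 CPM comes from the biopsy of BERKO replicate 5, which was sequenced in 1 lane and rests on 11 reads. Gad1 on the left spread from 47.2 to 190 CPM in BERKO and from 107 to 183 in WT, a difference of -0.42 ± 0.31. The 190 CPM came from the same biopsy of BERKO replicate 5, on 46 reads, and the 47.2 CPM from BERKO replicate 4, on 21 reads. The Gad1 difference was -0.69 ± 0.31 without BERKO replicate 5 and -0.22 ± 0.30 without BERKO replicate 4. Nlgn2 on the left was 0.65 ± 0.41 higher in BERKO with all mice and -0.02 without BERKO replicate 4, so its direction there rests on that mouse.

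**Figure D3:**
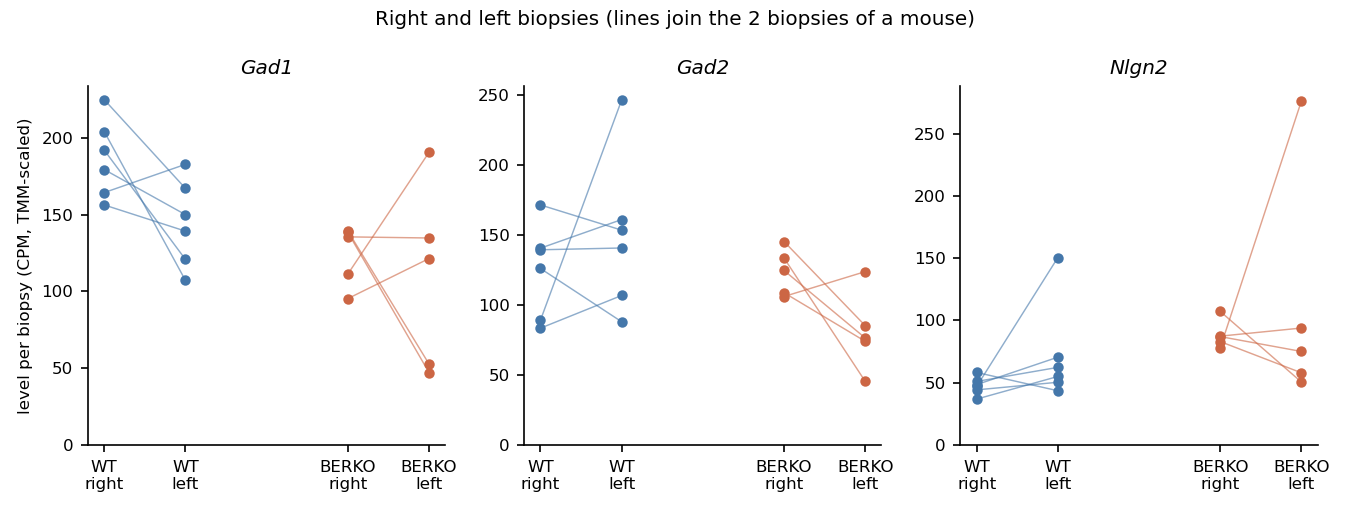
Level of Gad1, Gad2 and Nlgn2 in each biopsy (CPM after TMM scaling), right and left, WT in blue and BERKO in orange, with a line between the 2 biopsies of a mouse. On the right the genotypes separate for Gad1 and Nlgn2 and not for Gad2; on the left they overlap for all 3 genes, and Nlgn2 has 2 high values, 276 CPM in BERKO replicate 4 and 150.5 CPM in WT replicate 6.

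Left and right biopsies of the same mice were compared with the mouse as a block. Of 8308 genes 0% were called, with 482 genes and 0 of the 6 tested members at an unadjusted p under 0.05. Gad1 was lower on the left in 5 of 6 WT mice and 3 of 5 BERKO mice, by -0.35 ± 0.19 over both genotypes (adjusted p = 0.887 by edgeR). Gad2 was higher on the left in 4 of 6 WT mice and in 1 of 5 BERKO mice. The difference of the Gad2 genotype effect between sides was -0.84 ± 0.38 (SE, adjusted p = 0.998 by edgeR), in a test that called 0% of genes. Without WT replicates 1 and 2, which hold the libraries that stood apart, it was -0.52 ± 0.39.

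Slc32a1, the vesicular GABA transporter, was at the edge of detection and failed the filter on low counts in every comparison. It had 61 reads in the 6 WT mice, of which 43 were in replicates 1 and 2, and 17 reads in the 5 BERKO mice. Per mouse, WT had 0.907 to 12.3 CPM with a median of 3.34, and the BERKO mice had 0, 3.61, 1.55, 5.31 and 3.17 CPM. The BERKO mouse at 0 could hold up to 2.31 CPM by a floor of 3 counts. By library, the 3 WT libraries that stood apart had 7.77 to 28.5 CPM and the other 9 WT libraries 0 to 6.78 CPM. A genotype difference in this transporter was not detectable at this depth. Of its 78 reads, 60.3% lay in the 3′ UTR and 30.8% in the 5′ UTR.

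Slc6a11, the astrocytic GABA transporter, was 29.9 to 78.0 CPM in WT mice with a median of 59.5, and 49.3, 38.2, 37.9, 51.0 and 32.3 CPM in BERKO. All BERKO mice lay inside the WT range. The means were 56.8 ± 20.6 (SD, n = 6) and 41.8 ± 8.03 (SD, n = 5), a log2 difference of -0.45 ± 0.27 (SE, adjusted p = 0.582 by edgeR). The 3 WT libraries that stood apart had 67.0 to 115 CPM against 19.3 to 78.7 in the other 9, and without them the difference was -0.26 ± 0.28. Fitted among non-promoter reads only, the class that holds all its reads, it was -0.76 ± 0.27 (adjusted p = 0.557 by edgeR). Its 2 main 3′ UTR features, at 114197971 and 114199418 of chromosome 6 (mm9, plus strand), differed by -0.76 ± 0.57 and by -0.01 ± 0.39, and the gap between them was not tested. The direction of Slc6a11 was opposite to that of the astrocyte markers, of which 14 of 15 tested were higher in BERKO and 0 were called, with a median of 0.32 (14 of 15 and 0.23 without the 3 libraries). Aqp4, the water channel of astrocyte endfeet, was at 61.2 ± 21.3 CPM (SD, n = 6) in WT and 112 ± 18.6 (SD, n = 5) in BERKO.

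Abat, the enzyme that breaks GABA down, was at close means in the genotypes, 201 ± 38.9 CPM (SD, n = 6) in WT and 212 ± 46.4 (SD, n = 5) in BERKO. WT mice had 137 to 248 CPM with a median of 200.3, and BERKO mice 254, 214, 199, 252 and 141 CPM. The log2 difference was 0.08 ± 0.17 (SE, adjusted p = 0.917 by edgeR). Its 5′ UTR feature at 8513573 of chromosome 16 (mm9) differed by 0.01 ± 0.19 and its 3′ UTR feature at 8619919 by 0.23 ± 0.28.

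The other genes of GABA breakdown, precursor supply and uptake were taken as a list. Of 12 tested, 9 were higher and 3 lower in BERKO, 0 were called, and the median was 0.15 against -0.01 for all genes. Leaving out the 3 outlying WT libraries, 7 were higher and 4 lower, with a median of 0.08. Glul, the astrocytic glutamine synthetase that feeds transmitter glutamate and GABA, had 241 ± 50.7 CPM (SD, n = 6) in WT and 325 ± 72.9 (SD, n = 5) in BERKO, a difference of 0.44 ± 0.17 with an adjusted p of 0.387 by edgeR. The glutamine transporter Slc38a1 of neurons differed by 0.34 ± 0.18 and Slc38a3 of astrocytes by 0.35 ± 0.49, values of 0.20 and 0.08 without those libraries. Aldh5a1, the succinate semialdehyde dehydrogenase that acts after Abat, differed by -1.11 ± 0.85 at a mean of 6.75 CPM in WT. The Aldh5a1 difference was -1.77 without BERKO replicate 2 and -0.77 without BERKO replicate 3.

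Nlgn2 was the member with the largest positive difference. WT mice had 42.2 to 88.1 CPM with a median of 55.4, and BERKO mice 80.9, 90.9, 146, 77.6 and 83.7 CPM. Of the WT mice, 5 of 6 lay under every BERKO mouse, and WT replicate 6 at 88.1 CPM lay among them. The means were 57.4 ± 16.3 (SD, n = 6) and 95.9 ± 28.7 (SD, n = 5), a log2 difference of 0.75 ± 0.22 (SE) that did not pass after adjustment (adjusted p = 0.239 by edgeR, rank 90 of 9025 genes by p). Without BERKO replicate 4 it was 0.55 ± 0.23 and without WT replicate 6 it was 0.91 ± 0.22.

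Most Nlgn2 reads came from 1 feature of its 3′ UTR, at 69638296 of chromosome 11 (mm9, minus strand). It had 33.9 to 70.9 CPM in WT mice and 77.8, 57.1, 134, 58.9 and 75.6 CPM in BERKO, a log2 difference of 0.72 ± 0.25 (SE, adjusted p = 0.266 by edgeR). Since all Nlgn2 reads lay outside 5′ UTR features, the gene was also fitted among non-promoter reads only, where the higher share of such reads in BERKO is part of the scaling. There the difference was 0.41 ± 0.25 (SE, adjusted p = 0.796 by edgeR).

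Gphn, the scaffold that neuroligin 2 binds, was 25.2 to 49.5 CPM in WT with a median of 40.1, and 25.4, 41.1, 31.7, 47.8 and 40.6 CPM in BERKO. The genotypes overlapped over nearly their whole range, with a log2 difference of -0.05 ± 0.27 (SE, adjusted p = 0.969 by edgeR) that turned to 0.13 ± 0.33 when libraries were scaled on spike-ins. Its 5′ UTR feature, at 79327740 of chromosome 12 (mm9, plus strand), lies 2.05 Mb from that of Esr2 at 77278038, and it differed by -0.14 ± 0.34.

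**Figure D4:**
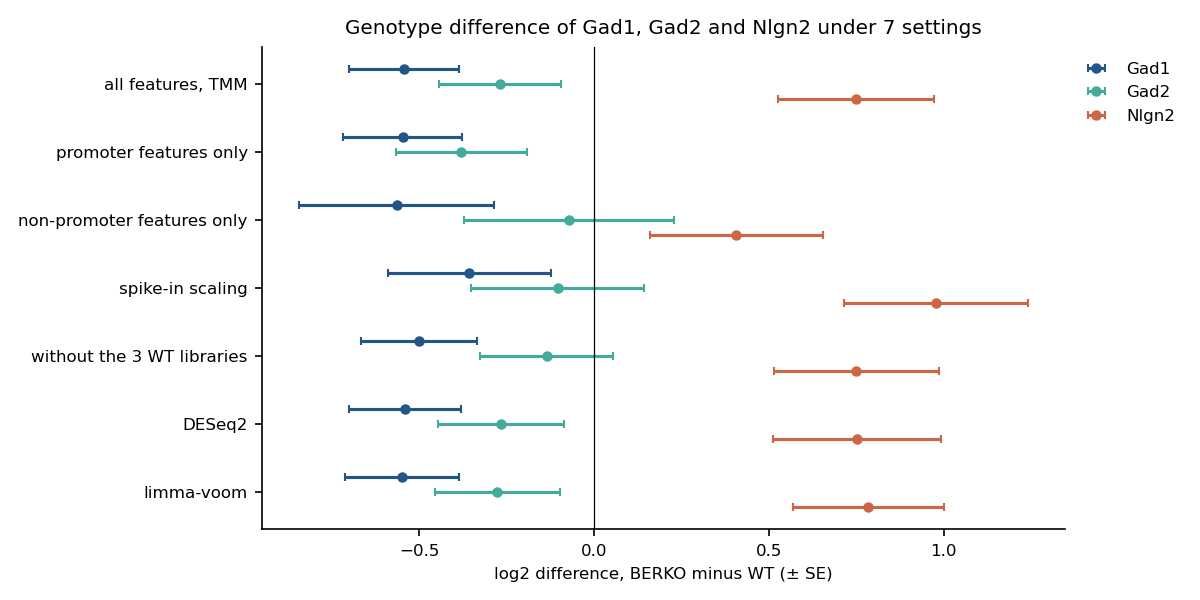
Log2 difference, BERKO minus WT, of Gad1, Gad2 and Nlgn2 (points, with bars of 1 SE) under the main fit and 6 other settings; Nlgn2 has no promoter features. Gad1 stays between -0.56 and -0.36, and Nlgn2 between 0.41 and 0.98, lowest on non-promoter features and highest with spike-in scaling.

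Spike-in scaling moved the median of all genes from -0.01 to 0.19, a shift of 0.20. With that shift included, the log2 difference was -0.36 ± 0.23 for Gad1, -0.10 ± 0.25 for Gad2 and 0.98 ± 0.26 for Nlgn2, the last with an adjusted p of 0.0573 by edgeR. With this scaling 43 genes were called higher and 2 lower, in place of 4 and 3.

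Among 25 other organisers of inhibitory synapses that could be tested, 16 were higher and 9 lower in BERKO, 0 were called, and the median was 0.11 (14 higher, 11 lower and 0.05 without the 3 WT libraries). Mdga2, a membrane protein that binds neuroligins and blocks their contact with neurexins, had 25.5 ± 15.1 CPM (SD, n = 6) in WT and 6.82 ± 4.05 (SD, n = 5) in BERKO, a difference of -1.86 ± 0.49 with an adjusted p of 0.179 by edgeR and of 0.0432 by DESeq2. Magi2, a synaptic scaffold that binds neuroligins, differed by -1.03 ± 0.39, and by -0.49 ± 0.32 without WT replicate 3. Lhfpl4, which links GABA type A receptors to neuroligin 2, had 44.8 ± 12.9 CPM (SD, n = 6) in WT and 77.3 ± 23.6 (SD, n = 5) in BERKO, a difference of 0.78 ± 0.25 with an adjusted p of 0.294 by edgeR. On non-promoter features alone the Lhfpl4 difference was 0.46 ± 0.26. The other neuroligin genes Nlgn1 (-0.38 ± 0.24) and Nlgn3 (-0.46 ± 0.27) gave no call.

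Of 14 GABA receptor genes tested, 6 were higher and 8 lower, 0 were called, and the median was -0.18. With the 3 outlying WT libraries removed the balance turned, with 9 higher, 5 lower and a median of 0.08. The receptor subunit genes Gabrg3 and Gabrb1 differed by -1.02 ± 0.49 and -0.55 ± 0.40, and Gabra3 by 0.51 ± 0.31. Single mice weighed on these values: Gabrg3 was -0.67 without WT replicate 3, Gabrb1 -0.01 without WT replicate 1 and Gabra3 0.31 without BERKO replicate 4. The metabotropic subunit Gabbr1 differed by 0.33 ± 0.16, by 0.67 ± 0.51 on promoter features alone and by 0.002 ± 0.17 on non-promoter features alone. Of 7 genes of chloride handling, which sets the direction of GABA type A currents, 3 were higher and 4 lower with a median of -0.04 (2, 5 and -0.19 without the 3 libraries). The chloride importer Slc12a2 was at 9.77 and 18.6 CPM, a difference of 0.93 ± 0.51 that was 1.47 without WT replicate 2, and the exporter Slc12a5 differed by 0.35 ± 0.23, or 0.20 without BERKO replicate 4. The chloride transporter Clcn3 differed by -0.15 ± 0.15, which turned to 0.08 with spike-in scaling, and the kinase Wnk1 by -0.35 ± 0.38. For the other pathway of gephyrin, 1 of 4 molybdenum cofactor genes was higher and 3 were lower, with a median of -0.20 (-0.13 without the 3 libraries) and 0 called. Suox, the sulfite oxidase that uses the cofactor, differed by 0.15 ± 0.42, Mocs2 by -0.20 ± 0.19, Xdh by -1.12 ± 0.81 and Marc2 by -0.20 ± 0.55.

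Across the 22 biopsies the members mostly varied apart from each other. The strongest relation among 15 pairs was between Gad1 and Nlgn2, with a Pearson r of -0.75 and a Spearman rho of -0.69 on log2 CPM. It is a description without a test, because 2 biopsies share a mouse and the 2 genes differ in opposite directions between genotypes. Within WT the r was -0.53 over 12 biopsies and within BERKO -0.74 over 10. Leaving out the 2 biopsies farthest from the median of Gad1, both BERKO left biopsies, gave -0.61. The next pair was Slc6a11 and Gphn with an r of -0.64, while the 2 synthesis genes Gad1 and Gad2 gave 0.26.

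**Figure D5:**
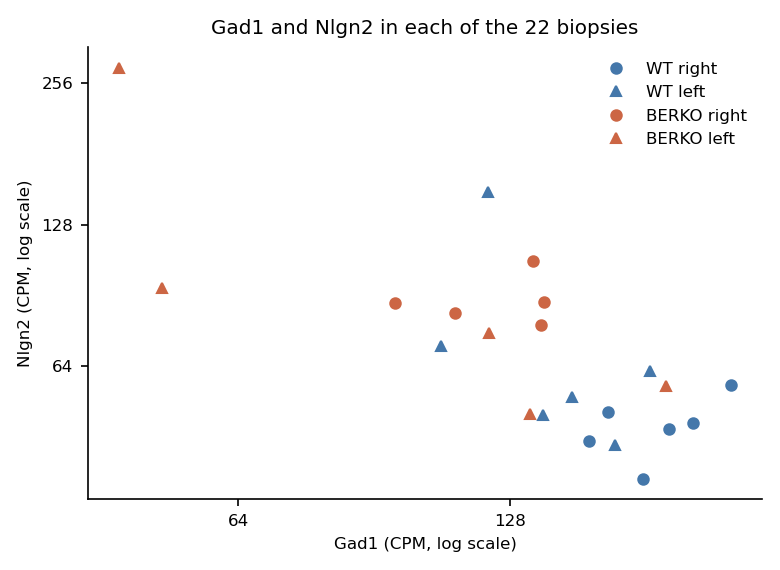
Gad1 against Nlgn2 in each of the 22 biopsies (CPM after TMM scaling, both axes on a log scale), circles for right and triangles for left, WT in blue and BERKO in orange. Biopsies with less Gad1 had more Nlgn2, and the biopsy at the upper left, with 47.2 CPM of Gad1 and 276 of Nlgn2, is the left one of BERKO replicate 4.

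Among 5764 genes with a mean of at least 20 CPM, those with the highest r with Gad1 over the 22 biopsies were Nit1 (0.76), Stam (0.75) and Slc6a7 (0.73). For Gad2 they were Mblac2 (0.80), 1500009L16Rik (0.79) and Xpo5 (0.76), and for Nlgn2 they were Lrp3 (0.74), Mprip (0.73) and Cbx6 (0.71). With the 3 outlying WT libraries left out, the values of these 9 genes lay between 0.64 and 0.86, but the order changed. The first 3 were then Prmt5 (0.83), Paip2b (0.80) and Imp3 (0.78) for Gad1. For Gad2 they were 1500009L16Rik (0.86), Vps29 (0.76) and Mblac2 (0.76), and for Nlgn2 Rpl21 (0.80), Ccni (0.78) and Ckb (0.78). Libraries share depth, side and mouse, and no test was made of these values.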

How the data were processed

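RNA 5′ ends of 22 biopsies were measured. The deposited files hold whole-number counts of reads for every feature and lane, a ratio table and a feature annotation; the deposited ratio is the count divided by the spike-in total of the library (largest difference 0.000000 on recomputation) and was not used further. Per the submitters' processing notes, build mm9, Bowtie and TopHat2 2.0.12 were used. The filtering of reads is not stated. All 64 columns were matched to biopsies; the digit after the genotype was read as the lane and the last number as the mouse, a reading the labels do not state in words and on which sums per mouse rest. Lanes were summed, since lanes 1 and 3 of a biopsy differed within sampling noise (chi-square per gene 0.69 to 0.849), unlike different biopsies (4.34 to 22). BERKO replicate 5, left, has 1 lane and all other biopsies 3. Reads are not molecules, so floors (3 counts) cover counting error only. Features with 1 symbol (95410) were summed to genes. Left out were 38 spike-ins, 19 other features on spike-in sequences and 37 ribosomal repeat features. Reads outside single-symbol genes were 5.22% of endogenous reads and entered the feature test only, apart from the ribosomal ones.

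The mouse was the replicate. edgeR 4.0.16 in R 4.3.3 (quasi-likelihood test, robust, two-sided, TMM, default expression filter, Benjamini-Hochberg over all genes or features tested, threshold 0.05) gave all log2 differences; errors are the difference over the square root of F. TMM factors lay within 0.948 to 1.09 (common biological coefficient of variation 36.7%). Levels are CPM after TMM. Left and right were paired by the last number of the labels, read as the mouse. Deviations of the paired biopsies from the group means correlated at -0.165 to 0.455, with the own mouse the best match for 4 of 11. DESeq2 1.42.0 and limma 3.58.1 were alternatives. The tests were tested on simulated data. Stretches shared with other transcripts (at least 80 bases, 95% identity) were sought with BLAST 2.17.0 in GENCODE transcripts. No protein table was used here, and the Abat promoter was not used here.

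Members, gene lists and the Gad1 to Gad2 ratio were chosen with earlier results of these data known. All members are named; from each list up to 4 tested genes with the smallest p, member features with a mean of 20 or more reads per mouse in either genotype, and the 3 genes most correlated with a member. A gene chosen by this rule is not reported here. Nlgn1, Nlgn3 and the cell type markers given with values are named in addition, picked with their values in view.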

Additional observations from a re-analysis of the deposited data

Results flagged for a closer look

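Of 44 groups of member levels checked, 7 held a mouse or biopsy far from the rest of its group. Chance flags about 1 in 20 groups, but these groups overlap. A mouse sums its 2 biopsies, so 1 biopsy can be flagged 2 times. Nlgn2 gave 4 of the 7, from 2 mice. Per mouse, WT replicate 6 had 88.1 CPM and BERKO replicate 4 had 146.4 CPM, each above the rest of its genotype. The left biopsies of the same 2 mice had 150.5 and 276.3 CPM, against 43.6 to 70.5 CPM in the other WT left biopsies and 50.5 to 93.9 CPM in the other BERKO left biopsies. The right biopsies of these 2 mice, at 47.0 and 78.1 CPM, lay inside their groups, so the high values came from the left library of each mouse. With 1 library per hemisphere of a mouse, hemisphere and library cannot be told apart.

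Slc32a1 stood out in the left biopsy of WT replicate 2, with 28.5 CPM from 15 reads, 1 of the 3 libraries that stood apart and in which Hap1, a huntingtin-associated protein abundant in hypothalamus, was 285 to 467 CPM against 17.2 to 63.3 in the other 19. Gphn stood out in the right biopsy of BERKO replicate 3, with 12.7 CPM. The log2 ratio of Gad1 to Gad2 reads was -0.22 in BERKO replicate 4, below the 0.12 to 0.25 of the other BERKO mice. The causes were not tested.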

How the results depend on the processing

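No member and no member feature passed the threshold under any alternative, and Gad1, Gad2, Slc6a11 and Nlgn2 kept their direction in the genotype comparison of summed biopsies under every one that gave a value. The adjusted p was 0.0808 to 0.747 for Gad1 and 0.0573 to 0.796 for Nlgn2. With 7 genes called in the main comparison, 34 were called by DESeq2, 2 by limma-voom, 14 with no filter on low counts, 0 on non-promoter features, 45 with spike-in scaling, 4 after thinning every mouse to the depth of the shallowest (968219 reads), and 1 to 18 without 1 mouse (1 without BERKO replicate 3, 18 without WT replicate 4; 2 without BERKO replicate 4, BERKO replicate 5 or WT replicate 6; 3 without BERKO replicate 6, WT replicate 3 or WT replicate 5; 4 without WT replicate 2). Leaving out 1 mouse gave 8 to 47 features called (47 without WT replicate 4; 15 with all mice), 0 to 6 genes on the right (5 with all; 0 without BERKO replicate 2, 3 or 4 or WT replicate 2, 3 or 5), 0 to 1 on the left (1 without WT replicate 4) and 0 to 3 for left against right (3 without BERKO replicate 2).

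These directions turned. In the genotype comparison Abat went to -0.20 on non-promoter features, -0.0090 without and -0.026 with a replicate block on replicates 2 to 6, and -0.017 to 0.20 without 1 mouse. Gphn went to 0.020 on promoter features, 0.13 with spike-in scaling, 0.097 after thinning, and -0.14 to 0.069 without 1 mouse. Clcn3 went to 0.083 with spike-in scaling, Gabrb1 to 0.078 without the 3 WT libraries that stood apart, Slc38a1 to -0.065 on promoter features and Slc38a3 to -0.98 on non-promoter features, Marc2 to 0.031 by limma-voom and -0.37 to 0.14 without 1 mouse. The Slc6a11 feature at 114199418 went to 0.018 under the stricter filter (20 reads in 5 mice). Without 1 mouse, right side values were -0.14 to 0.15 for Abat and -0.12 to 0.091 for Gad2. Left side values were -0.015 to 0.23 for Abat, -0.065 to 0.64 for Gphn and -0.017 to 0.99 for Nlgn2. The difference between sides was -0.061 to 0.40 for Abat, -0.23 to 0.34 for Gad1, -0.078 to 1.01 for Gphn and -0.14 to 0.76 for Slc6a11. The Gad1 to Gad2 difference was -0.36 to -0.21 without 1 mouse, past the threshold without WT replicate 3 alone, -0.19 on promoter features and -0.41 without the 3 WT libraries. The causes were not tested.

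WT and BERKO mice share only a number: same-numbered mice correlated at -0.0334 to 0.055 in their deviations. A replicate block on numbers 2 to 6 gave 10 genes called against 7 without it on the same mice. The fit on numbers 2 to 6 with no block, the removal of WT replicates 1 and 2 together, and the lists without the 3 WT libraries, were chosen after seeing the data. Without the mouse as replicate block, 0 genes were called for left against right. Depth limits Slc32a1 most, with 78 reads in all.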
